A study of Mus musculus with 1 sample.

Results

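The BCL2 family of apoptosis regulators was described through 10 of its genes, in cells of mouse gastric organoids profiled as 1 single-cell library. They were Bcl2l1, Mcl1, Bcl2, Bax, Bak1, Bad, Bid, Bbc3, Pmaip1 and Bcl2l11, taken by symbol from the list of 32285 genes in the count matrix. All 10 were present and all 10 had counts, and 16953 genes had a count in the cells analysed. Organoids are epithelial cultures grown as hollow balls in a gel, and these were made from stomach. The cultures were wild type, carried no engineered allele that the labels name, received no treatment, and were harvested on day 7. They were dispersed to single cells for 30 min at 37 °C in 0.05% trypsin-EDTA. The strain, age and sex of the source animals, and how many animals the cultures came from, were not given in the sources used here. Counts were of unique molecular identifiers (UMIs), where 1 UMI stands for 1 captured transcript 3' end. The rule for cells, 500 or more genes with a UMI and no more than 20% mitochondrial UMIs, was met by 1892 of 1991 barcodes. Of these, 12 called doublets were removed, which left 1880 cells with 19951439 gene UMIs and a median of 8475 UMIs per cell (range 890 to 47183). With 1 library there was no replicate, so no difference was tested, no p-value is given, and every 95% interval covers counting error only.

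BCL2 family proteins decide whether the outer membrane of the mitochondrion is opened, the step that releases cytochrome c and commits a cell to intrinsic apoptosis. The effectors BAX and BAK form the pores, and the survival proteins BCL-XL (gene Bcl2l1), MCL1 and BCL2 bind and hold them back. The BH3-only proteins sense damage or loss of growth signals and either block the survival proteins or activate the effectors: BIM (Bcl2l11), BID, BAD, PUMA (Bbc3) and NOXA (Pmaip1). In the stomach lining, where cells are replaced throughout life, these proteins set how readily an epithelial cell dies when it is stressed or detached. Much of the regulation lies beyond transcript number, since MCL1 and NOXA are short-lived proteins, BAD is switched off by phosphorylation, BID is activated by cleavage, and BAX waits in the cytosol. Counting of 3' ends also does not separate the spliced forms of Bcl2l1, Mcl1 and Bcl2l11, some of which have opposite or altered activity. Transcript balance is therefore described here and protein balance was not measured.

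All 10 members are protein-coding genes in GENCODE M21 (GRCm38). The survival genes are Mcl1 (chr3:95658788-95663176), Bcl2l1 (chr2:152780668-152831728) and Bcl2 (chr1:106538178-106714274). The effector genes are Bax (chr7:45461697-45466898) and Bak1 (chr17:27019810-27029009). The BH3-only genes are Bcl2l11 (chr2:128126038-128162547), Bad (chr19:6941861-6951899), Bid (chr6:120891930-120916853) and Bbc3 (chr7:16308393-16318205), and Pmaip1 is the fifth. Exons of Bad, Bak1, Bid and Bcl2 overlap exons of genes on the other strand, which are Gpr137, Ggnbp1, Bcl2l13 and D630008O14Rik. Whether the authors' counting used strand was not given in the sources used here, so the counts of these 4 members could include or lose reads of the partner. Bax shares exons on its own strand with the annotated gene Gm45808, which was not analysed here, and reads of the shared exons cannot be told apart.

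Promoter windows of RefSeq (GRCm38.p6, 300 bases from 250 before to 50 after a start site) were found for 9 members in 15 windows, with no entry for Pmaip1. The windows were searched on both strands for the p53 half-site by name, the NF-kB site by name, the FOXO core TGTTTAC and the hypoxia response core ACGTG. Motif matches are descriptions of letters in a window and not of binding. Below are the 250 bases before the start of Bax and of Bcl2l11. Bax was the effector that varied most between cell clusters, though not when the cluster where it was highest was left out. Bcl2l11, the BH3-only gene with the highest level, was low in that cluster. Capitals mark the p53 half-site in Bax and the FOXO core, read on the other strand, in Bcl2l11. Mcl1, the most abundant member, had none of the 4 motifs in its window and is shown for comparison.
Bax (chr7:45466899-45467148, minus strand): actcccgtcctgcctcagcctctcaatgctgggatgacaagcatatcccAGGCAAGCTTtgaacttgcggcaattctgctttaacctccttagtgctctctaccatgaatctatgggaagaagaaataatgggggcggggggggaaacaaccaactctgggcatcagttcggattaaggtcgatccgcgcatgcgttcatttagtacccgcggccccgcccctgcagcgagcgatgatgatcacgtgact
Bcl2l11 (chr2:128125788-128126037, plus strand): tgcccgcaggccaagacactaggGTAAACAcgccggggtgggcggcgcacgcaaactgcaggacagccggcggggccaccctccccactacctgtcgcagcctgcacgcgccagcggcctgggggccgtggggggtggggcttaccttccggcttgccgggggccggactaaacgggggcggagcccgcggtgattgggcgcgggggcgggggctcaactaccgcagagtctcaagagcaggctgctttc
Mcl1 (chr3:95658471-95658720, plus strand): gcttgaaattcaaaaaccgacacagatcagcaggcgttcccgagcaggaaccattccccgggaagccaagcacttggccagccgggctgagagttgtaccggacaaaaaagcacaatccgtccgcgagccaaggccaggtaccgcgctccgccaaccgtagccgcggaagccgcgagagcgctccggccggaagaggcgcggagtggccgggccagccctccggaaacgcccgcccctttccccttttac
The half-site in Bax began 201 bases before the start, and Bax was the 1 member of 9, in 1 of the 15 windows, with that motif, which 8.36% of 32851 RefSeq windows held. The FOXO core was found in windows of Bbc3 and Bcl2l11, against 3.65% of all windows. NF-kB sites were found in windows of Bcl2l1 and Bbc3 (4.51% of all windows), and the hypoxia core in windows of Bax and Bbc3 (19.6% of all windows). The RefSeq starts differ in part from transcript starts in GENCODE M21. They coincide for Bax and Bcl2l11, but the Mcl1 start lies 67 bases before the nearest GENCODE start of the gene, that of Bcl2 16 bases before it, and those of the 3 Bbc3 windows 24 to 194 bases before it, with the FOXO core in the window at 194. The p53 half-site and the NF-kB site have 10 letters each and were allowed to overlap other motifs.

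The labelled cell type, epithelial cell, matched the markers. Epcam had a UMI in 96.5% of cells, Krt8 in 97.9%, Krt18 in 99.6% and Cdh1 in 52.0%. Defining genes of stromal and endothelial cells were close to absent, with Col1a2, Dcn, Cdh5 and Kdr at 0 UMIs. With 3 counts as the limit of a count of 0, up to 0.160% of cells could have a UMI of such a gene. Pecam1 had a UMI in 0.160% of cells. Of the immune markers, Ptprc had a UMI in 0.0532% of cells and Cd68 in 8.56%. Because no cell type that should lack the BCL2 family was found, the contribution of free RNA to the members' low counts was not tested.

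Transcripts of the 3 survival genes made up 43.9% of the family's 11751 UMIs (95% interval 43.0 to 44.8), and those of the 7 death genes 56.1%. The survival genes together reached 258.6 CPM, which is UMIs per 1000000 gene UMIs of the cells (interval 252 to 266). The death genes together reached 330.4 CPM (323 to 339), so that there were 0.783 survival UMIs for each death UMI (0.755 to 0.812). Effectors held 19.8% of family UMIs and BH3-only genes 36.3%. The share depends on which genes are summed: it was 53.4% without Bax, 52.4% without Bcl2l11, 50.2% without Bad and 21.4% without Mcl1. The family as a whole held 589 CPM, and 96.5% of cells had at least 1 family UMI.

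Mcl1, a survival gene whose protein turns over within a short time, was the most abundant member at 168.5 CPM (163 to 174). It alone held 28.6% of family UMIs, was found in 71.4% of cells, and stood at the 96.0th percentile of genes with a UMI. Bcl2l1 followed among the survival genes at 80.2 CPM (76.3 to 84.2) and was seen in 47.1% of cells. Bcl2, the founding member of the family, was nearly at the bottom of the order at 9.92 CPM (8.59 to 11.4) and was seen in 9.47% of cells. Mcl1 UMIs were 2.10 times those of Bcl2l1 (1.98 to 2.23) and 17.0 times those of Bcl2 (14.7 to 19.7). The pro-survival transcript pool of these organoid cells was thus Mcl1 and Bcl2l1, with few Bcl2 transcripts.

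The effectors were also unequal in level. Over all cells Bax had the second highest level of the family, 105 CPM (101 to 109.7), and was seen in 57.4% of cells. Outside the cell cluster where Bax was highest, described below, it was at 95.1 CPM (90.8 to 99.6). Bcl2l11 was at 97.4 CPM (93.0 to 101.9) in the same cells, with overlapping intervals. The order of Bax and Bcl2l11 was thus not resolved outside that cluster. Bak1, whose product sits in the mitochondrial membrane and can form the same kind of pore, had 11.6 CPM (10.1 to 13.2) and was seen in 11.1% of cells. There were 9.07 Bax UMIs for each Bak1 UMI (7.92 to 10.4).

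Among BH3-only genes, Bcl2l11 led at 95.3 CPM (91.1 to 99.7), and 52.8% of cells had its UMIs. Bad, whose product links growth factor signalling to the survival proteins, had 73.3 CPM (69.6 to 77.2) and was seen in 48.0% of cells. Pmaip1, which encodes the MCL1-binding NOXA, had 24.1 CPM (22.0 to 26.4). Bid, the link from death receptors to mitochondria, had 13.6 CPM (12.01 to 15.3). Bbc3, a p53 target that encodes PUMA, was the lowest of the 10 at 7.42 CPM (6.27 to 8.71), in 7.34% of cells. Bcl2l11 therefore had 12.8 UMIs for each Bbc3 UMI (10.9 to 15.3). Down the order of all 10 members, the ratio of neighbours had an interval that included 1 for Bid over Bak1 (0.981 to 1.40) and Bak1 over Bcl2 (0.961 to 1.42), so the order within these pairs was not resolved. The closest of the others was Bcl2l1 over Bad, at 1.09 (1.02 to 1.18). At 3000 UMIs per cell this pair stood in the other order, with Bcl2l1 at 72.2 CPM and Bad at 74.8 CPM.

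**Figure D1:**
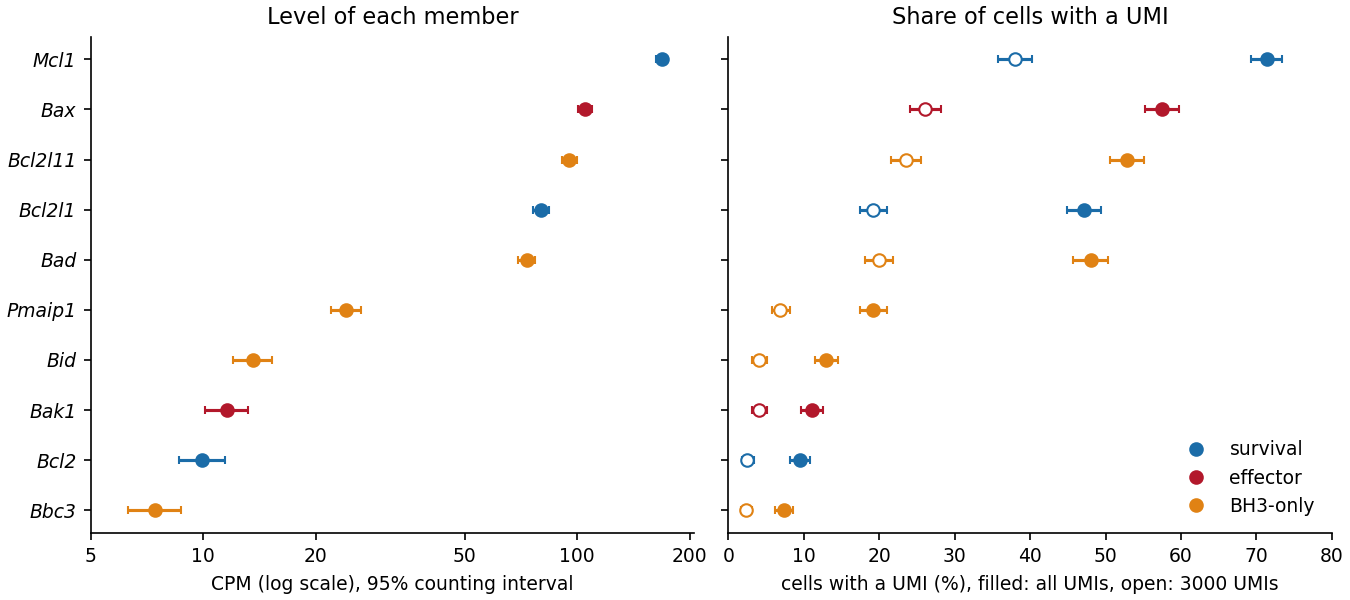
The left panel plots the level of each member in CPM on a log axis, and the right panel the share of 1880 cells with a UMI (filled) and of 1823 cells thinned to 3000 UMIs (open), with 95% counting intervals as bars and colours for the role. Mcl1, Bax and Bcl2l11, one of each role, head the order, and Bcl2 and Bbc3 stand at its foot.

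Within single cells the family was sampled thinly, with a median of 5 family UMIs per cell (range 0 to 38) and a median of 3 members with a UMI. More death than survival UMIs were found in 990 cells (52.7%, 50.4 to 54.9), more survival UMIs in 588 cells (31.3%, 29.2 to 33.4) and equal numbers above 0 in 237 cells (12.6%). No family UMI was found in 65 cells (3.46%). At 3000 UMIs per cell, which 1823 cells reached and 57 did not, these shares were 41.5%, 26.9%, 13.5% and 18.1% in the same order. UMIs of both kinds were present in 75.2% of cells, and in 31.2% at 3000 UMIs per cell, so that share was lower at the lower depth. All 347 cells with at least 10 family UMIs had both kinds. Their survival share had a median of 45.5% and ran from 4.76% to 90.9%.

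**Figure D2:**
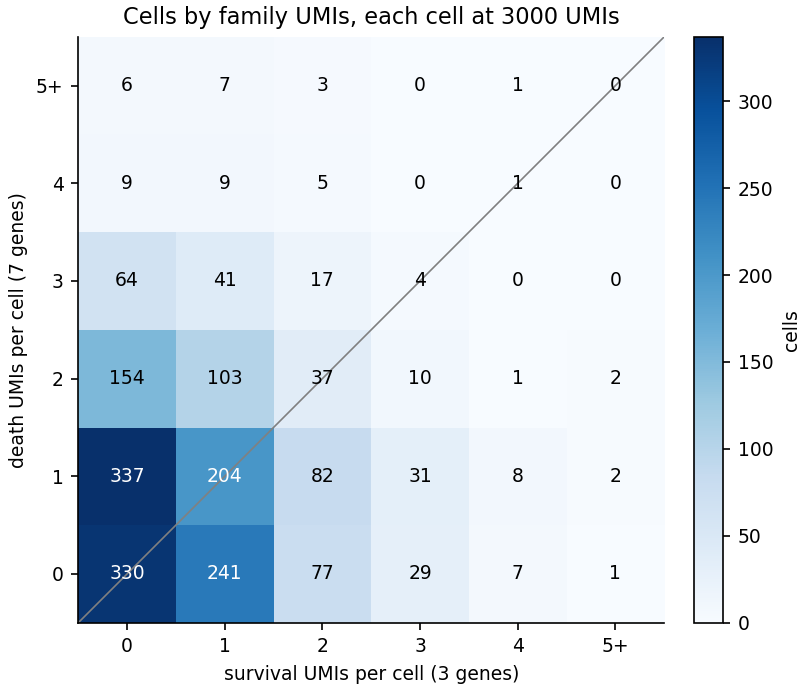
Each square gives the number of cells, of 1823 thinned to 3000 UMIs, with the survival UMIs on the horizontal axis and the death UMIs on the vertical axis (5+ is 5 or more). The line marks equality, and the cells crowd into the corner of 0 and 1 UMIs, with 337 cells at 1 death and 0 survival UMIs and 241 at the reverse.

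Whether 2 members occurred in the same cells was examined for Mcl1, Bcl2l1, Bax, Bak1, Bad, Bid and Bcl2l11, as 42 ordered pairs at 3000 UMIs per cell. The share of cells with 1 member, in cells with minus cells without the other, ran from -6.22 to 5.34 percentage points, and all 42 intervals included 0. Bax was found in 24.9% of cells with and 26.4% of cells without a Bcl2l1 UMI, a difference of -1.55 points (-6.57 to 3.81). At 5000 UMIs per cell, where 1625 cells remained, the intervals of 40 pairs still included 0, and the same difference was 7.66 points (2.41 to 12.9). Bcl2l11 in cells with minus cells without Bax was 2.56 points at 3000 UMIs and -3.01 points at 5000. Pairing within cells was therefore not resolved at these depths.

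Cells were clustered without the members, wider apoptosis genes, cell cycle genes, p53 targets, sex-linked and mitochondrially encoded genes, which gave 7 clusters numbered by size. They are given by number and leading genes and not as cell types. Cluster 1 (503 cells) was led by Cxcl5, Fam107a, Nav3, Cxcl2 and Slit2. Cluster 2 (400 cells) was led by 2610528A11Rik, Gpr137b, Ly6m, Ndrg1 and 1700084E18Rik, and cluster 3 (312 cells) by Ly6m, Atg9b, Ppm1l, Ahnak2 and Ndrg1. Cluster 4 (262 cells) was led by Aox3, Scgb3a1, Trf, Mmp7 and Cbr2, and cluster 5 (228 cells) by Psca, Prss22, 2210011C24Rik, Pcolce and Tnfrsf4. Cluster 6 (114 cells) was led by the mitotic genes Aspm, Knl1, Dlgap5, Hmmr and Aurka, and 93.9% of its cells were called S or G2/M. Cluster 7 (61 cells) was led by Cyba, Reg3g, Gm3776, Gsta2 and Gsta1.

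Cluster 7 stood apart from the rest of the library, and the main results that rest on it are given with and without it. The genes most similar to each member in pattern over clusters were found only with it. A UMI of a Y-linked gene was found in 52.5% of its cells against 0.990% of all others, and an Xist UMI in 26.2% against 78.3%. The 4 pit cell markers, all detected, summed to 5300 CPM in it and to 104 to 347 CPM in the other 6 clusters. Shares of cells with their UMIs differed less, with Tff1 in 57.4% of its cells against 54.4% of others, Gkn1 in 36.1% against 22.7%, Gkn2 in 31.1% against 16.3% and Muc5ac in 9.84% against 2.03%. The 3 chief cell markers summed to 51.1 CPM against 1.11 CPM, with Cblif and Pga5 at 0, and the proliferation markers to 644 CPM against 155 CPM. Mucous neck markers summed to 59.3 CPM against 14.8 CPM, with Muc6 at 0 in cluster 7 and Tff2 in 21.3% of its cells against 6.54%. Epithelial markers were at 3421 CPM against 3605 CPM, its median depth was 14281 UMIs, and 65.6% of its cells were called S or G2/M. The part of these features in the members' levels was not tested.

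The survival share was 48.7% in cluster 1 (47.1 to 50.3), 45.1% in cluster 3, 44.0% in cluster 4, 43.4% in cluster 5 and 43.0% in cluster 6. It was 36.9% in cluster 2 (34.6 to 39.3) and 30.9% in cluster 7 (27.5 to 34.4). The intervals of clusters 3 to 6 overlapped one another, while clusters 1, 2 and 7 lay outside them and apart from each other. Clusters 1 and 7 differed by 17.9 points (14.0 to 21.6), and without cluster 7 the extremes were clusters 1 and 2, 11.8 points apart (8.96 to 14.6). Cluster 1 had the highest levels of both Mcl1 and Bcl2 and the lowest of Bax. Cluster 2 had the lowest Mcl1 and Bcl2.

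Mcl1 reached 200.4 CPM in cluster 1 (189.5 to 212) against 129.6 CPM in cluster 2 (117 to 143), a ratio of 1.55 (1.38 to 1.74), with the other 5 clusters between 143 and 169 CPM. Bcl2 reached 15.6 CPM in cluster 1 (12.6 to 18.9) against 5.22 CPM in cluster 2 (2.98 to 8.48), a ratio of 2.98 (1.75 to 5.41). Bcl2l1 had a different order, with 101.5 CPM in cluster 3 (92.1 to 112) against 54.1 CPM in cluster 4 (44.5 to 65.1), 1.88-fold apart (1.52 to 2.33). So the 3 survival genes did not share 1 order over clusters. Within the cells of each multiplexing tag, an oligonucleotide label put on cells before pooling whose meaning here the labels do not give, the ratios of the same clusters were 1.60 and 1.497 for Mcl1, 3.58 and 2.62 for Bcl2, and 2.51 and 1.40 for Bcl2l1.

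Bax was at 78.8 CPM in cluster 1 (72.1 to 86.0), 119.5 in cluster 2, 99.6 in cluster 3, 82.4 in cluster 4, 108 in cluster 5, 104 in cluster 6 and 297 in cluster 7 (264 to 334). Cluster 7 lay far above the rest, 3.77-fold over cluster 1 (3.25 to 4.37), and no other interval reached it. Without cluster 7 the highest was cluster 2, 1.52-fold over cluster 1 (1.32 to 1.74), with 1.49-fold and 1.56-fold in the cells of the 2 tags. Bak1, the other effector, ran from 8.01 CPM in cluster 3 (5.54 to 11.2) to 20.4 CPM in cluster 7 (12.5 to 31.6), and without cluster 7 its extremes were 1.81-fold apart with an interval that included 1 (0.988 to 3.24).

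Bcl2l11 was at 120.6 CPM in cluster 3 (110.3 to 132), 109 in cluster 2, 102 in cluster 1, 78.3 in cluster 6, 65.3 in cluster 4, 60.6 in cluster 5 and 55.2 in cluster 7 (41.5 to 72.0). The clusters fell into a higher trio, numbers 1 to 3, and a lower quartet. Cluster 3 was 2.18-fold over cluster 7 (1.65 to 2.95) and 1.99-fold over cluster 5 (1.62 to 2.46) when cluster 7 was left out. Pmaip1 was also highest in cluster 3 at 37.7 CPM (32.1 to 44.0), next in cluster 2 at 28.7 CPM, and 17.5 CPM in cluster 4 (12.3 to 24.3), 2.15-fold below cluster 3 (1.49 to 3.17). Bad was lowest in these same clusters 3 and 2, with 52.98 CPM in cluster 3 (46.3 to 60.4), 57.4 in cluster 2, 85.1 in cluster 1 and 93.4 CPM in cluster 5 (80.02 to 108). Clusters 3 and 5 were 1.76-fold apart (1.44 to 2.16). Death genes thus did not move as a block: cluster 3 was the highest for Bcl2l11 and Pmaip1 and the lowest for Bad and Bak1. Bid ran from 10.2 to 17.4 CPM and Bbc3 from 4.87 to 11.2 CPM over the 7 clusters, with ratio intervals that included 1.

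Of the 8 members at 10 CPM or more, 4 had a highest cluster at least 2-fold over the lowest, which were Bax, Bak1, Pmaip1 and Bcl2l11. Among all 6662 genes at that level the share was 53.9%. Without cluster 7 it was 1 of 8 members, Pmaip1, against 40.6% of genes. A range of that size was thus common in these cells.

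**Figure D3:**
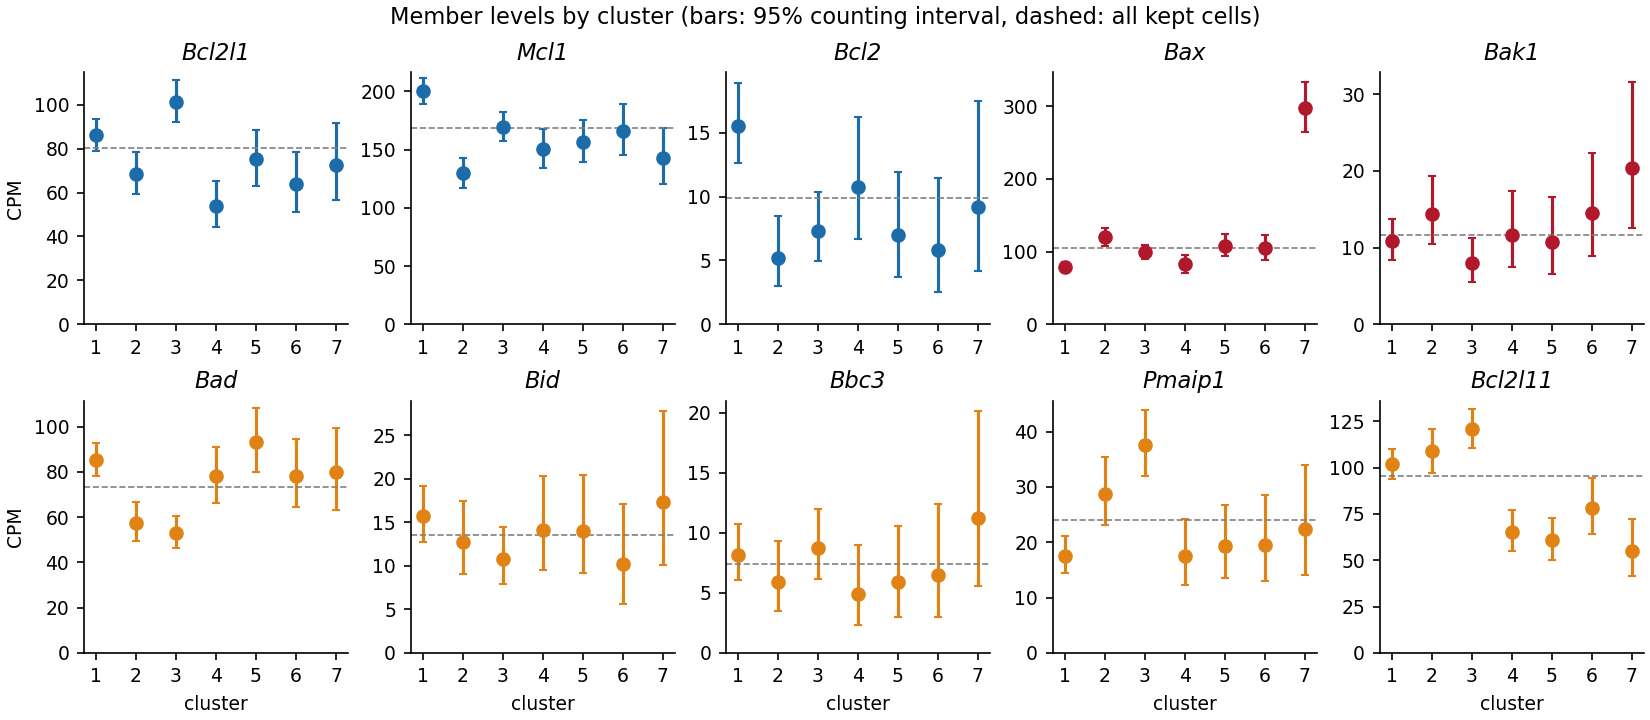
Each panel plots 1 member's level in CPM over the 7 clusters, with 95% counting intervals, the level over all kept cells as a dashed line, and a vertical axis of its own that starts at 0 (blue survival, red effector, orange BH3-only). Bax stands out in cluster 7 at 297 CPM, and Bcl2l11 and Pmaip1 peak in cluster 3 where Bad is lowest.

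Cluster 7 was then set against all other cells. Its survival share was 30.9% against 44.7%, a difference of -13.9 points (-17.4 to -10.2). With Bax left out of the sum, the difference was -1.36 points. Bax had 291 UMIs there, 297 CPM against 95.1 CPM, a ratio of 3.13 (2.75 to 3.54), and a UMI in 85.2% of cells against 56.5%. The ratio was 2.58 (2.16 to 3.06) in cells with tag CMO301 and 3.999 (3.32 to 4.79) in cells with tag CMO302, so it was above 1 in both. At resolution 0.3 or with 1000 variable genes, where the cluster led by Cyba grew to 142 or 146 cells, the ratio was 2.005 or 1.97. Bcl2l11 was lower, at 55.2 CPM against 97.4 CPM, a ratio of 0.567 (0.424 to 0.743), and 0.579 and 0.551 by tag. Bak1 had a ratio of 1.84 (1.10 to 2.91) on 20 UMIs, and each tag alone gave an interval that included 1. Mcl1 had 143 CPM against 170 CPM, a ratio of 0.843 whose upper bound was 0.998, and 0.732 (0.571 to 0.925) and 1.01 (0.781 to 1.29) by tag. The intervals of Bcl2l1, Bcl2, Bad, Bid, Bbc3 and Pmaip1 included 1.

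By a fold of 1.5, 2 of 8 members were higher in cluster 7 (Bax and Bak1), against 18.3% of all genes, and 1 was lower (Bcl2l11), against 16.6% of genes. The median log2 ratio of these 8 members was 0.01, and that of all genes tested 0.05. Other p53 targets were also high there, with a median log2 ratio of 1.68 over the 6 of their list at 10 CPM or more. Of these 6, 5 were higher by that fold, namely Cdkn1a, Mdm2, Ccng1, Phlda3 and Trp53inp1. Cdkn1a, which halts the cell cycle, was at 148 CPM against 13.2 CPM. Trp53 itself was at 34.7 CPM against 7.38 CPM, a ratio of 4.71 (3.14 to 6.89). Plk2, the list's most abundant gene, had a ratio of 0.900 (0.706 to 1.13).

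Cells were next grouped by their UMIs of 10 p53 targets other than the family, counted at 3000 UMIs per cell. Plk2 alone gave 48.5% of the 968 target UMIs counted, and 52.3% outside cluster 7. The survival share was 43.8% in 1148 cells with none, 44.6% in 612 cells with 1 or 2, and 39.4% in 63 cells with 3 or more. Cells with 3 or more minus cells with none differed by -4.47 points (-8.62 to -0.210), but by 3.78 points when cluster 7 was left out. The shares were then 47.9% (42.9 to 52.9) in 51 cells and 44.1% (42.9 to 45.3) in 1126 cells. The direction of that difference thus turned when cluster 7 was left out, with overlapping intervals of the shares. It also turned, in all cells, to 1.56 points when Bax was left out of the sum and to 3.24 points when the groups were formed from all UMIs.

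The members themselves separated in this grouping. Pmaip1 was at 42.6 CPM (29.1 to 60.1) in cells with 3 or more target UMIs and 21.1 CPM in cells with none, a ratio of 2.02 (1.35 to 2.92), and 2.24 (1.45 to 3.34) without cluster 7. That last ratio rests on 27 UMIs in 12 cells. The share of cells with a Pmaip1 UMI was 23.5% (12.8 to 37.5) against 18.0% (15.8 to 20.4) there, with overlapping intervals. Bcl2l1 had 106.5 CPM against 79.4 CPM, a ratio of 1.34 (1.05 to 1.69), and 1.45 (1.11 to 1.86) without cluster 7. Mcl1 had a ratio of 1.18 (0.992 to 1.40), and 1.31 (1.09 to 1.58) without it. Bax had 214 CPM against 97.3 CPM, a ratio of 2.20 (1.86 to 2.60), but 99.8 CPM against 95.1 CPM without cluster 7, a ratio of 1.05 (0.790 to 1.37). Bbc3, with 13 UMIs, had a ratio of 2.38 (1.22 to 4.27), and 2.20 (0.973 to 4.38) on 9 UMIs without cluster 7. Outside cluster 7, the 587 cells with 1 or 2 target UMIs lay between the other groups for Pmaip1, at 27.2 CPM (23.4 to 31.6), and for Mcl1, at 178 CPM (168 to 189). For Bcl2l1 they were at 78.9 CPM (72.2 to 86.1), level with the 79.9 CPM of cells with none, so its higher level was seen in the 51 cells with 3 or more and rests on 66 UMIs. By a fold of 1.5, with all clusters, 2 of 8 members were higher (Bax and Pmaip1), against 8.02% of genes, and 0 were lower, against 6.89%.

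Because Plk2 weighed so much, the groups were also formed from the other 9 targets and from Plk2 alone, a choice made after seeing the data. With the 9 targets, the difference in survival share between cells with 3 or more target UMIs and cells with none was -11.0 points over all clusters. Its direction turned when cluster 7 was left out, on few cells. Outside cluster 7, 11 cells had 3 or more UMIs of the 9 targets, and the ratio to cells with none was 2.04 for Bcl2l1 (1.35 to 2.97, on 28 UMIs), 1.87 for Pmaip1 (0.745 to 3.89) and 1.18 for Mcl1 (0.818 to 1.66). In the 359 cells there with at least 1 UMI of the 9, the ratio was 1.06 for Bcl2l1 (0.933 to 1.19), 1.46 for Pmaip1 (1.19 to 1.80) and 1.07 for Mcl1 (0.980 to 1.16). In the 366 cells there with at least 1 Plk2 UMI, it was 1.12 for Bcl2l1 (0.992 to 1.26), 1.28 for Pmaip1 (1.03 to 1.58) and 1.22 for Mcl1 (1.13 to 1.32). In the 18 cells there with 3 or more Plk2 UMIs, it was 0.705 for Bcl2l1 (0.322 to 1.34), 3.54 for Pmaip1 (1.87 to 6.13) and 1.33 for Mcl1 (0.926 to 1.86). With at least 1 UMI, Pmaip1 was thus higher with either kind, Mcl1 with Plk2, and Bcl2l1 had intervals that included 1 in both. With 3 or more, the interval of Bcl2l1 lay above 1 only with the 9 targets, and that of Pmaip1 only with Plk2.

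Each cell was given a cell cycle phase from its scores for S and G2/M genes. The survival share was 44.9% in 1347 G1 cells (43.8 to 45.9), 42.8% in 351 S cells (40.4 to 45.1) and 39.4% in 182 G2/M cells (36.9 to 42.0). S or G2/M minus G1 was -3.69 points (-5.72 to -1.66), and -1.62 points without cluster 7. The shares were then 43.5% (41.6 to 45.4) and 45.1% (44.1 to 46.2), with overlapping intervals. When cycling cells were those with an Mki67 or Top2a UMI, it was -1.02 points. Bax was at 128 CPM in S or G2/M cells and 96.4 CPM in G1 cells, a ratio of 1.33 (1.21 to 1.46), and at 149.8 CPM in G2/M cells alone. Without cluster 7 its ratio was 1.10 (0.986 to 1.22), and all other members' intervals then included 1 as well. With all clusters, 0 of 8 members were higher by 1.5-fold, against 3.84% of genes, and 0 were lower, against 0.675%. Phase calls rest on scores of sparse counts, and free RNA in them was not tested.

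**Figure D4:**
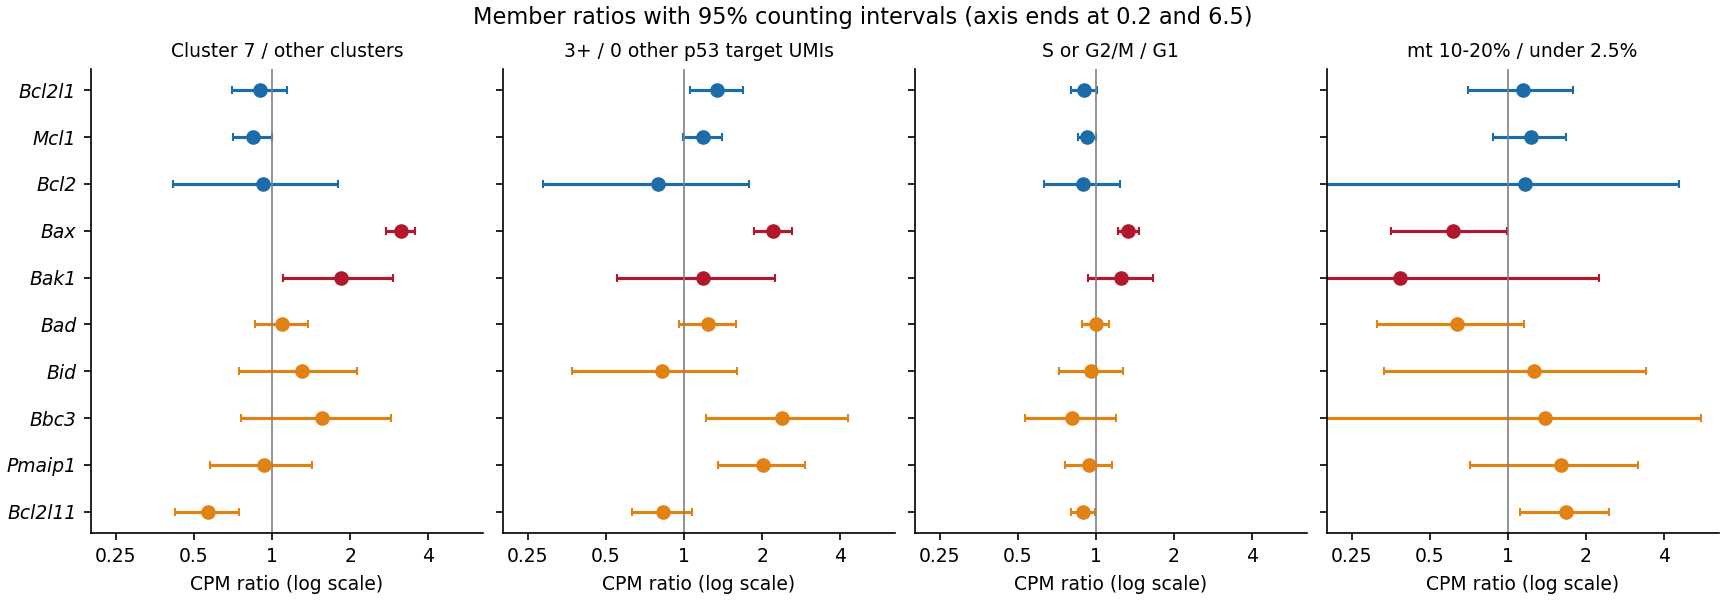
The ratio of CPM between sets of cells is plotted on a log axis for each member in 4 comparisons, with 95% counting intervals as bars (blue survival, red effector, orange BH3-only) and a line at 1. Bax lies above 1 in the first 3 panels, at 3.13, 2.20 and 1.33, while Bcl2l11 is at 0.567 in the first and 1.68 in the last.

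The mitochondrial share of a cell's UMIs was used to form 4 bins, since transcripts of damaged cells are often rich in mitochondrially encoded RNA. The survival share was 41.8% in 324 cells under 2.5%, 44.6% in 990 cells at 2.5 to 5%, 43.8% in 510 cells at 5 to 10% and 46.8% in 56 cells at 10 to 20%. The last bin rests on 139 family UMIs and a median depth of 3515 UMIs, and its difference from the first was 4.96 points (-3.78 to 13.8). That value was 11.2 points with Bcl2l11 left out of the sum and 2.30 points in cells with 1000 or more genes. Bcl2l11 was at 138 CPM (93.0 to 197) in the last bin and 82.1 CPM in the first, a ratio of 1.68 (1.11 to 2.44), and 1.68 without cluster 7. Bax was at 78.1 CPM (45.5 to 125) and 126.9 CPM, a ratio of 0.615 (0.356 to 0.996), and 0.727 with an interval that included 1 without cluster 7. By a fold of 1.5, 2 of 8 members were higher (Pmaip1 and Bcl2l11), against 22.2% of genes, and 3 were lower (Bax, Bak1 and Bad), against 26.3%. The members' counts were close to these shares of all genes.

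Across depth quartiles the survival share was 41.8%, 44.5%, 43.1% and 44.6% from shallowest to deepest, and the outer quartiles differed by 2.78 points (-0.255 to 5.79), or by 4.13 points without cluster 7. Bcl2l11 was at 111.6 CPM in the shallowest and 92.5 CPM in the deepest quartile, a ratio of 0.829 (0.717 to 0.960), and 0.869 (0.751 to 1.01) without cluster 7. Without that cluster Bax had a ratio of 0.806 (0.696 to 0.936) and Bcl2l1 of 1.19 (1.01 to 1.43), where all cells gave 0.930 (0.807 to 1.07) and 1.17 (0.988 to 1.40). With a fold of 1.5, 0 of 8 members were higher in the deepest quartile, against 7.27% of genes, and 0 were lower, against 1.62%. The survival share was 43.6% in 1057 cells with tag CMO301 and 44.3% in 823 cells with tag CMO302, a difference of 0.748 points (-1.07 to 2.57).

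**Figure D5:**
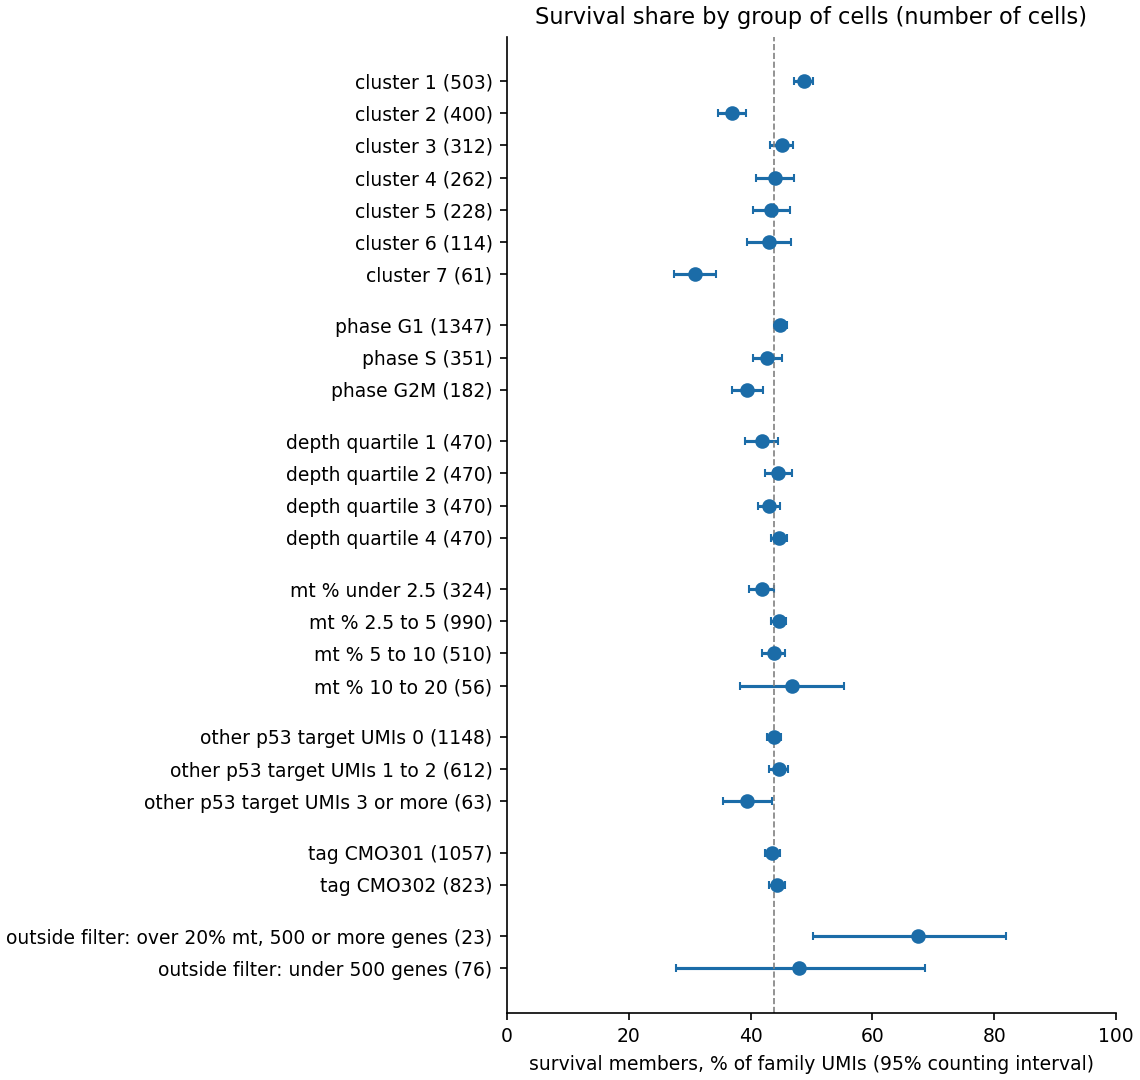
The survival share of family UMIs, in percent, is plotted for each group of cells with its 95% counting interval, the number of cells in brackets and the share over all kept cells as a dashed line. Clusters 1, 2 and 7 depart from the line at 48.7%, 36.9% and 30.9%, while most other groups of kept cells stay near 43.9%. Intervals also lie below the line for G2/M cells (39.4%), cells with 3 or more other p53 target UMIs (39.4%) and cells under 2.5% mitochondrial UMIs (41.8%). Barcodes over 20% mitochondrial UMIs, outside the filter, lie above it at 67.6%.

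The wider family and its downstream machinery were counted from lists that hold genes chosen for their roles. Of 13 other BCL2 family genes, 11 had a UMI and 3 reached 10 CPM. These were Bcl2l13 at 20.9 CPM, Bok at 19.7 CPM, a BAX-like protein, and Bik at 12.2 CPM, a BH3-only protein. Bcl2a1a and Bcl2a1b had 0 UMIs (up to 0.160% of cells by the limit of 3 counts), and Bcl2l2, which encodes the survival protein BCL-W, had 1.55 CPM (1.06 to 2.20). With Bcl2l2, the Bcl2a1 genes, Bcl2l10, Bok, Bmf, Hrk and Bik added by role, the survival share was 41.6%. Bcl2l12, Bcl2l13, Bcl2l14 and Bcl2l15 were left out of that sum.

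Of 14 genes of the apoptosome and caspases, all 14 had a UMI and 9 reached 10 CPM. Cycs, which encodes cytochrome c, was highest at 97.4 CPM (93.1 to 102). The adaptor and initiator that cytochrome c engages were low, with Apaf1 at 5.31 CPM (4.35 to 6.43) and Casp9 at 4.71 CPM (3.81 to 5.77), and Birc3 was lowest at 1.60 CPM. In cluster 7, 4 of these 9 genes were higher by 1.5-fold, namely Cycs, Casp6, Aifm1 and Birc5, against 18.3% of all genes, and 1 was lower, Endog, against 16.6%. Cycs had a ratio of 2.24 (1.92 to 2.59) and Birc5, which is also a mitotic gene, 7.55 (6.18 to 9.17). Of 8 death receptor genes, all had a UMI, 5 reached 10 CPM, Tnfrsf1a was highest at 25.8 CPM and Fas lowest at 1.86 CPM. In cluster 7, 0 of the 5 were higher by that fold, against 18.3% of genes, and 1 was lower, Cflar, against 16.6%, with an interval of its ratio that included 1 (0.313 to 1.08). Fadd, the adaptor of these receptors, was below 10 CPM over all cells and had a ratio of 3.10 (1.71 to 5.29) there on 16 UMIs.

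All 8 partners of the outer membrane and of protein turnover reached 10 CPM, from Bag6 at 36.4 CPM to Ywhaz at 460.2 CPM. Ywhaz encodes a 14-3-3 protein that holds phosphorylated BAD in the cytosol, and Vdac2, which recruits BAK and BAX to mitochondria, was at 423 CPM. In cluster 7, 0 of the 8 were higher by 1.5-fold, against 18.3% of genes, and 0 were lower, against 16.6%. Huwe1, an MCL1 ubiquitin ligase, was at 68.6 CPM, and Usp9x, which removes ubiquitin from MCL1, at 45.1 CPM. Of the 11 genes in the list of Trp53 and its other targets, all had a UMI and 6 reached 10 CPM, with Plk2 highest at 87.1 CPM and Eda2r lowest at 0.501 CPM.

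The wider lists hold 31 genes at 10 CPM or more, and those past 1.5-fold were counted in each comparison. In cluster 7, 10 were higher, against 18.3% of all genes, and 2 lower, against 16.6%. Bok was among them with a ratio of 1.60 (1.07 to 2.33), and the other 2 BCL2 family genes outside the 10 members at that level were not past it. In S or G2/M cells 2 of 31 were higher, Birc5 and Cdkn1a, against 3.84% of genes, and 0 were lower, against 0.675%. Without cluster 7, 1 was higher, Birc5, against 2.69% of genes, and the Cdkn1a ratio turned from 1.55 (1.251 to 1.91) to 0.706 (0.502 to 0.973). In the deepest quartile 4 of 31 were higher, Bcl2l13, Birc5, Cdkn1a and Ccng1, against 7.27% of genes, and 0 were lower, against 1.62%. Without cluster 7, 1 was higher, Bcl2l13, against 6.41% of genes. In cells with 3 or more p53 target UMIs, Bik, Birc5, Casp8 and Ripk1 were higher, beside the targets that formed the groups, and Cflar was lower. For all genes these shares were 8.02% and 6.89%. The ratio was 2.13 for Ripk1 (1.41 to 3.13) and 0.395 for Cflar (0.144 to 0.873), while the intervals of Bik and Casp8 included 1. Without cluster 7, Bik, Birc5 and Casp8 were no longer past the fold and Bag6 was, at 1.57 (1.06 to 2.25). With the targets counted, 8 of 31 were then higher and 1 lower, against 8.66% and 7.81% of genes. Ripk1 was there at 2.43 (1.56 to 3.66) and Cflar at 0.515 (0.187 to 1.14). At 10 to 20% mitochondrial UMIs 7 of 31 were higher, against 22.2% of genes, and 9 lower, against 26.3%. Of these, Xiap, Tradd, Huwe1, Usp9x, Bag6, Mdm2 and Trp53inp1 were higher and Bok, Cycs, Casp6, Htra2, Birc5, Vdac2, Vdac3, Cdkn1a and Ccng1 lower, and the intervals of Usp9x, Trp53inp1, Vdac2 and Vdac3 excluded 1. Without cluster 7, 8 were higher and 5 lower, against 22.8% and 25.7% of genes, and the interval of Trp53inp1 (0.853 to 5.81) included 1.

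Genes with the most similar pattern over the 7 clusters were found for the 8 members at 10 CPM or more, by Pearson r of log2(CPM + 1) among 2154 genes at 50 CPM or more. The clusters share 1 library, so r is a description. Nearest to Bax were Lgals4 (r = 0.987), Esd and Gsta1, which carry the same peak in cluster 7. Nearest to Bcl2l11 were Ktn1 (r = 0.967), Tor1aip2 and mt-Co1, and nearest to Pmaip1 were Ndrg1 (r = 0.946), Egln1 and Csnk2a2, the first of which also led clusters 2 and 3. For Mcl1 they were Ptprs (r = 0.982), Myo18a and Arf3, and for Bcl2l1 Rab10 (r = 0.948), Cmip and Plk2. For Bad they were Fabp5 (r = 0.983), Fkbp8 and Cox7b, for Bak1 Fuom (r = 0.953), Mrpl2 and Snrpc, and for Bid Idh1 (r = 0.861), C1qbp and H2-K1.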

How the data were processed

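The deposited matrix holds whole-number UMI counts per gene and barcode, which the authors did not normalize, in 1 library (20236916 gene UMIs in 1991 barcodes). It was made with Cell Ranger 6.1.2 on GRCm38/mm10, per the submitters' processing notes, from a 10x Genomics 3' library, per the labels' protocols. The matrix also holds 12 multiplexing tags, which stayed out of gene totals, and cells were assigned to their highest tag. What each tag marks was not given in the sources used here. The strand setting was not given in the sources used here.

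The members and gene lists were chosen with earlier results of these data known, and the alternatives that leave out Bax, Bcl2l11 or Mcl1 from a comparison, leave Plk2 out of the p53 grouping or cluster 7 out of the wider lists, or use tags, were added after seeing the data. Doublets were called with Scrublet in scanpy 1.11.5, which marked 12 of 1892 cells (0.634%). Clusters came from 2000 variable genes, 30 principal components, 15 neighbours and Leiden (leidenalg 0.10.2) at resolution 0.6. CPM are UMIs summed over cells per 1000000 gene UMIs, without scaling by transcript length. Intervals are exact at 95% (Poisson for CPM, Clopper-Pearson for shares, conditional binomial for ratios), and differences of shares combine the bounds of both shares. PCR and sampling beyond UMI counting are not covered. Named genes are all members, the highest, the lowest and any past the fold of each list, 5 leading genes per cluster, and the 3 most similar genes per member, and further list genes were chosen after their values were seen. The CPM ratios and their fold calls were tested on simulated counts that held no spread between cells beyond sampling. Clustering, doublet calls, phases, differences of shares and co-detection were not simulated.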

Additional observations from a re-analysis of the deposited data

Results flagged for a closer look

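The 99 barcodes left out by the cell filter held 62 family UMIs, which the comparisons did not use. In the 23 barcodes with 500 or more genes and over 20% mitochondrial UMIs, the survival share was 67.6% (50.2 to 82.0) on 37 family UMIs. Mcl1 was at 343 CPM (203 to 542) in them and Bax at 19.0 CPM on 1 UMI (0.482 to 106). In the 76 barcodes with under 500 genes the share was 48.0% (27.8 to 68.7) on 25 family UMIs, with Mcl1 at 30.3 CPM (3.67 to 109) and Bax at 45.4 CPM (9.37 to 133). Over all 99 barcodes Mcl1 was at 168.7 CPM (103 to 260.5), against 168.5 CPM (162.8 to 174.3) in kept cells. The difference from kept cells was not tested.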

How the results depend on the processing

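Of 172 values recomputed for 36 results, 135 stayed within the interval of the reported value (for counts of members, within 1.5 times the count), 34 moved further and 3 reversed a difference whose interval had excluded 0. A further 3 changes of sign were co-detection differences whose intervals at 3000 UMIs included 0. The survival share of 43.9% was 42.6% with cells thinned to 3000 UMIs, 35.1% without Bcl2l1, 21.4% without Mcl1, 42.9% without Bcl2, 53.4% without Bax, 50.2% without Bad, 44.9% without Bid, 45.8% without Pmaip1, 52.4% without Bcl2l11 and 41.6% with part of the other family genes added. The share of cells with more survival UMIs was 26.9% after thinning. The gap between extreme clusters, 17.9 points, was 9.75 at resolution 0.3, 10.2 with 1000 variable genes, 11.8 without cluster 7, 24.9 without Bcl2l11 and 10.4 without Mcl1. Cluster 7 minus the others, -13.9 points, was -7.22 at resolution 0.3, -7.34 with 1000 variable genes and -1.36 without Bax. At resolution 0.3 or with 1000 variable genes, the cluster led by Cyba held 142 or 146 cells, of which 60 were shared with cluster 7. S or G2/M minus G1, -3.69 points, was -1.02 by Mki67 or Top2a and -1.62 without cluster 7. The p53 target difference of -4.47 points reversed to 3.78 without cluster 7, 1.56 without Bax and 3.24 with groups formed from all UMIs, and the cause was not tested. It was -11.0 with Plk2 left out of the grouping over all clusters, and that direction also turned without cluster 7. At a fold of 5/4 in place of 1.5, 2 members were higher in S or G2/M cells (Bax and Bak1), against 10.9% of genes, and 1 lower in the deepest quartile (Bak1), against 8.93%. Of 70 recomputed member levels, 66 stayed within the interval. Those that moved were Bcl2l1 at 72.2 CPM, Bcl2 at 8.41 CPM and Bak1 at 14.1 CPM after thinning, and Bax at 95.1 CPM without cluster 7. Bcl2l1 then lay below Bad, and Bax below Bcl2l11. Limiting cells to 10% mitochondrial UMIs leaves no cells in the last mitochondrial bin, so that difference has no value there. No paired analysis was possible because the labels number no replicates, every cell belongs to 1 library, and what the tags mark was not given. Depth limits Bcl2, Bbc3, Bak1 and Bid most, with at most 271 UMIs each over all cells.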
